A study of Mus musculus with 10 samples.

Results

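The stomach left after vertical sleeve gastrectomy (VSG) was compared with the stomach after a sham operation, across all genes of the deposited expression table. The values came from 1 VSG stomach library and 1 sham stomach library out of 10 RNA-seq libraries made from stomach, duodenum, jejunum, ileum and colon, with 1 library for each tissue and operation. Of 23079 genes in the table, 13367 had a mean of at least 1 RPKM (reads per kilobase of a gene, divided by the depth of its library) over the VSG and sham stomach and were compared, and the other 9712 were not. Me3 lay just inside that limit with a mean of 1.00 RPKM, and Gpc2 just outside with 0.999871.

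All mice were male C57BL/6J, 17 weeks old, and were on high-fat diet for 13 weeks. VSG, done under isoflurane after an overnight fast, took out 80% of the stomach on its lateral side and left a pouch of about 20%. Sham mice had the abdomen opened and the stomach lightly pressed with hemostats. Both groups took a liquid diet for the first 3 days after the operation and high-fat diet after that. The labels do not give the time from operation to tissue, the number of animals behind a library, or the part of the sham stomach that was taken. The design holds no sham library of the pouch region alone, so a difference of region and an effect of the operation cannot be told apart. In bulk tissue, fewer cells of a type and less RNA per cell cannot be told apart either. With 1 library a group there is no replicate check and no test: a gene is called higher or lower when log2((VSG RPKM + 1)/(sham RPKM + 1)) is at least 1 in size, a 2-fold difference on that scale. The ratios below are of the RPKM values themselves, each with an exact 95% interval that covers counting error only.

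The mouse stomach has a squamous forestomach and a glandular part. Oxyntic glands of the corpus hold acid-secreting parietal cells, pepsinogen-secreting chief cells and mucous neck cells, antral glands hold mucous cells and gastrin cells, and surface mucous cells line both. After injury or loss of parietal cells, chief and neck cells can take on a mucous state called spasmolytic-polypeptide expressing metaplasia, while stratified epithelium at a wound edge switches on stress keratins, proteases and signals that draw in leukocytes.

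Of the 13367 genes, 1728 were at least 2-fold higher in VSG stomach (12.9%) and 527 were at least 2-fold lower (3.94%), 2255 in either direction (16.9%). A gene kept through its level in 1 library alone had to differ, so these counts, and those of the lists below, are descriptions. The median log2 difference of all genes was 0.00, and Pearson's r of log2(RPKM + 1) between both libraries, taken over genes that are no independent replicates, was 0.77. The recovered reads on genes numbered 45501439 in VSG stomach and 79351407 in sham stomach, in a series that ran from 36073938 to 79351407. The 10 highest genes held 13.1% of all RPKM in VSG stomach and 41.8% in sham stomach, so scaling matters. Scaling both libraries to the same sum shifted the overall median by +0.17, with 1986 genes higher and 365 lower (84.5% of calls higher, against 76.6% as deposited). Leaving the 10 highest genes of either library out of that sum moved the median by -0.32 and gave 1393 higher and 1151 lower (54.8% of calls higher). Leaving out the liver and pancreatic lists as well moved it by -0.20 and gave 1504 higher and 837 lower (64.2% of calls higher). Gene lists for cell types and programmes are therefore described by their counts and their median, beside the values for all genes, with a remark wherever one of these scalings turns the sign of a median or brings a called gene that is named back inside the 2-fold line. Summed levels are over all genes of a list in the table, kept or not.

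**Figure D1:**
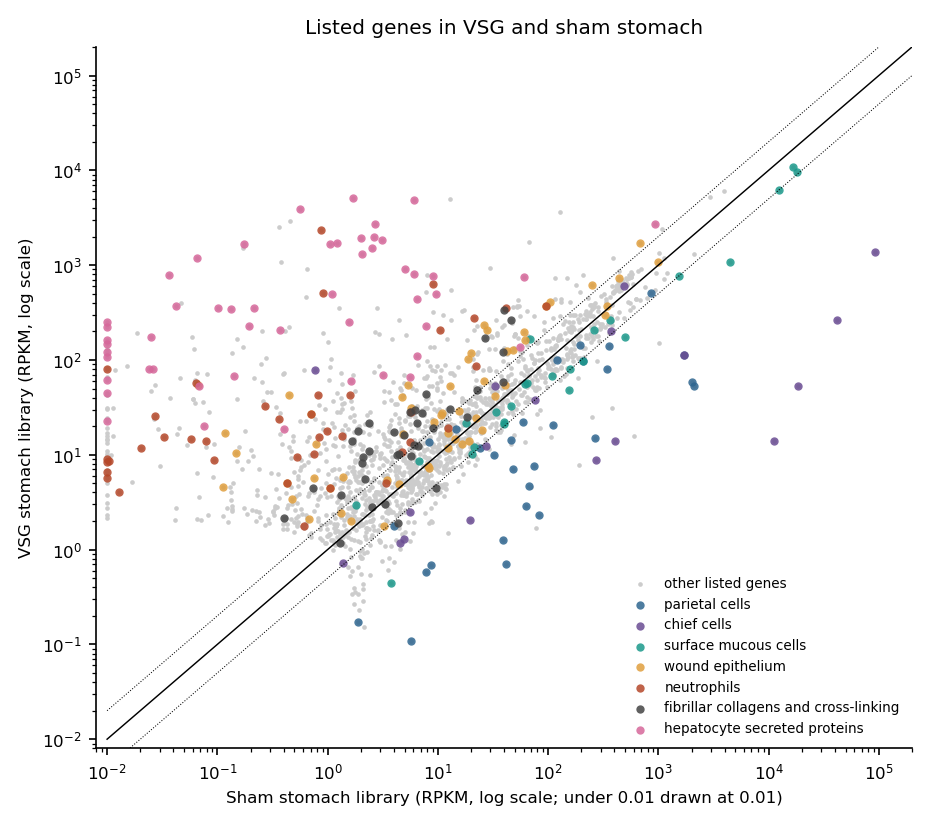
RPKM of the listed genes in the VSG stomach library (y axis, log scale) and the sham stomach library (x axis, log scale); each point is 1 gene, colours mark 7 lists, the solid line is equality and the dotted lines are 2-fold apart from it. Genes of hepatocytes and neutrophils lie far above the line, and the parietal and chief cell genes lie mostly below it.

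The VSG library still read as stomach. Gkn1 and Gkn2, which encode gastrokines of surface mucous cells, stood at 6181 and 9668 RPKM in VSG stomach, against 12517 and 18198 in sham stomach, and Tff1, the trefoil peptide of the surface, at 10786 against 16749. Genes that mark other organs were high in it too. All 51 genes of the list of proteins that hepatocytes secrete were higher in VSG stomach, with a summed level of 44094 RPKM against 1144 in sham stomach, where 7 of the 51 were at 0 (Apoa5, Apoc4, F9, Mup3, C8a, C9 and Mbl1). Of 57 hepatocyte enzyme genes, 55 were higher (summed 6072 against 639 RPKM), and the hepatocyte lists together held 10.8% of all RPKM in VSG stomach and 0.335% in sham stomach. Among 11 genes of Kupffer cells, the resident macrophages of the liver, 9 were higher (summed 337 against 115 RPKM, or 205 against 8.93 without Id3, which many cell types express and which made up most of the sham sum), and Clec4f and Marco of that list were at 0 in sham stomach. Clec4f, a lectin of Kupffer cells, stood at 30.4 RPKM in VSG stomach against 0, at least 1908-fold higher when the sham library is set to a floor of 3 reads.

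Pancreatic acinar genes went both ways. Of 37 in the list, 25 were higher and 5 lower in VSG stomach, at a median of 1.91. Cela3b, a pancreatic elastase, stood at 137 RPKM in VSG stomach against 0.171 in sham stomach, while Clps, colipase, and Pla2g1b, a secreted phospholipase, stood at 263 and 52.6 RPKM against 41858 and 18550. Clps and Pla2g1b are also in the chief cell list. Of 22 intestinal epithelium genes, 13 were higher at a median of 1.43, and 10 of 19 at 1.01 without genes that the liver lists hold, but Cdx2, the homeobox gene that defines intestinal epithelium, had 0.0806 RPKM in VSG stomach and 0.107 in sham stomach and was not kept. Fabp1, a fatty acid binding protein of liver and intestine, led that list at 550 RPKM against 13.1. Outside the liver, Kupffer and acinar lists, 13194 genes were left, of which 1581 were higher and 521 lower. The lists do not hold every liver gene: among the 10 genes furthest above sham outside them were Orm2 (1093 RPKM in VSG stomach, 0.379 in sham stomach), Pzp (395 and 0.0463), Trf (5043 and 13.0), Uox (203 and 0.256) and Fgl1 (356 and 1.28), all made by liver. Counts given below without the genes of these lists can therefore still include liver genes.

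Parietal cell genes were lower as a group. Of 29 kept, 22 were lower and none higher, at a median of -2.36, and the summed level was 1450 RPKM in VSG stomach against 8904 in sham stomach. Beyond the proton pump subunits Atp4a (53.0 RPKM in VSG stomach, 2093 in sham stomach) and Atp4b (58.1 and 2002), the fall took in partners of the pump. Kcne2, a potassium channel subunit needed for acid secretion, stood at 2.31 RPKM in VSG stomach against 83.3 in sham stomach (36.1-fold lower, 31.2 to 42.0). Trim50, a ubiquitin ligase of parietal cell tubulovesicles, stood at 0.703 RPKM against 41.1 (58.5-fold lower, 44.0 to 79.4). For Atp4a the ratio was 39.5 (38.7 to 40.3), inside the interval of Kcne2 and below that of Trim50. Cckbr, the gastrin receptor, stood at 0.174 RPKM against 1.90 (11-fold lower, 7.13 to 17.7), and Ezr, ezrin, which builds parietal cell canaliculi but is made in other epithelia too, at 139 against 357. Phldb2 and Kcnk1, the members furthest on the other side, stood at 13.5 and 18.7 RPKM in VSG stomach against 8.30 and 14.7 in sham stomach, short of 2-fold.

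Genes of energy supply that parietal cells use heavily stood beside these. Fabp3, a fatty acid binding protein of oxidative tissues, had 7.73 RPKM in VSG stomach against 192 in sham stomach (24.9-fold lower, 21.8 to 28.5). Cox7a1, a cytochrome oxidase subunit of oxidative muscle, had 4.60 RPKM against 70.2, and Ppargc1a and Ppargc1b, coactivators of mitochondrial genes, had 1.01 and 1.45 against 4.51 and 4.75. All 4 were lower by at least 2-fold. The wider list of oxidative phosphorylation genes was less far from 0, with 2 of 82 lower, none higher and a median of -0.43, and its most abundant named member, Atp5b of the ATP synthase, stood at 551 RPKM in VSG stomach and 928 in sham stomach.

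Chief cell genes were lower by a wide range of ratios. Of 18 kept, 12 were lower and 1 higher, at a median of -1.36, and the higher one was Cpb1, a carboxypeptidase that the acinar list also holds (78.2 RPKM in VSG stomach, 0.769 in sham stomach). Without the genes shared with liver and acinar lists, 9 of 13 were lower and none higher. The summed level was 2831 RPKM in VSG stomach against 167275 in sham stomach, of which Pgc, a pepsinogen, made up 1376 and 92218. Chia1, acidic chitinase, had the largest difference of the 10 named lower genes outside the liver lists, at 14.1 RPKM against 11208 (793-fold lower, 745 to 845). Pdia2, a disulphide isomerase of pancreas and chief cells, stood at 14.0 RPKM against 404 (28.8-fold lower, 27.2 to 30.5). Tnfrsf19, also known as Troy, which marks chief cells that can act as reserve stem cells, stood at 1.19 against 4.55 RPKM (3.83-fold lower, 3.39 to 4.35). The uncharacterised genes Smim38 (15.8 and 602 RPKM) and Gm12888 (1.70 and 78.2 RPKM), in no list, were lower by ratios like those of the pump.

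Surface mucous genes were lower by less. Of 25, 6 were lower and 1 higher, at a median of -0.77. Muc5ac, the surface mucin, stood at 176 RPKM in VSG stomach against 503 in sham stomach (2.85-fold lower, 2.83 to 2.87), Psca, a surface glycoprotein, at 1082 against 4459, and Aldh3a1, an aldehyde dehydrogenase of stomach and cornea, at 48.2 against 154. Krt20, a keratin of mature surface cells, went the other way at 167 against 68.6 RPKM. Within this list the gastrokines Gkn1 (log2 -1.02) and Gkn2 (-0.91) and Tff1 (-0.63) lay near or inside the 2-fold line, and Gkn1 came inside it (-0.82) with both libraries scaled to the same sum. Krt20 did so (0.91) with the 10 highest genes left out of that sum.

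Neck and antral mucous genes stood on the higher side. Of 16, 7 were higher and 1 lower at a median of 0.87 (6 of 15 higher at 0.83 without liver-list genes), and the lower one was Pgc, which neck cells share with chief cells. Gkn3, a gastrokine of neck and antral mucous cells, stood at 1201 RPKM in VSG stomach against 384 in sham stomach (3.12-fold higher, 3.07 to 3.17). Tff2, spasmolytic polypeptide, stood at 5244 against 2941 RPKM, log2 0.83, short of 2-fold. Muc6, the gland mucin, stood at 180 against 285 RPKM, below sham and also short of 2-fold. The mucous neck genes thus did not move as a block. Wfdc2 and Wfdc18, secreted protease inhibitor-like proteins, stood at 103 and 18 RPKM against 21.0 and 1.36, and Pigr, which carries immunoglobulin A across epithelium, at 262 against 33.8.

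The list for spasmolytic-polypeptide expressing metaplasia had 11 of 28 genes higher and 1 lower, at a median of 0.69, and 10 of 27 higher at 0.66 without liver-list genes. Cftr, a chloride channel, stood at 9.77 RPKM in VSG stomach against 1.26 in sham stomach (7.78-fold higher, 7.14 to 8.50). Clu, clusterin, stood at 1715 against 683, and Cd44, a hyaluronan receptor that marks this state and also leukocytes, at 27.7 against 10.8. Both came inside the 2-fold line, at 0.96 and 0.93, with the same sum taken without the 10 highest genes. Of its largest members, Cd14 (165 and 3.88 RPKM) and Gpnmb (87.2 and 8.45 RPKM) are also genes of macrophages, whose list was higher in the same library. Xbp1, the factor of secretory cells, stood at 179 RPKM in VSG stomach and 195 in sham stomach, and Bhlha15, which acts downstream of it in secretory cells, at 2.04 against 19.5. The share of chief, neck or other cells in these values was not tested.

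Tuft cell genes had 3 of 15 higher (20%, against 12.9% of all genes) and none lower at a median of 0.74. Rgs13, a regulator of G-protein signalling, stood at 6.65 RPKM in VSG stomach against 2.31 in sham stomach, but Pou2f3, the factor that defines tuft cells, stood at 1.82 against 2.04 and Avil, advillin, at 53.9 against 44.1. Alox5ap and Alox5 of this list (64.2 and 5.14 RPKM against 7.84 and 1.89) also belong to leukocytes. Isthmus and stem cell genes had 2 of 20 higher (10%) and 3 lower (15%), against 12.9% and 3.94% of all genes. Their median of -0.06 turned positive, to as much as 0.13, under other scalings. Sox2 stood at 9.75 RPKM in VSG stomach and 10.2 in sham stomach. Smoc2, a matrix protein also of stromal cells, stood at 14.4 against 6.09. With the same sum taken without the 10 highest genes, Rgs13 (0.92), Alox5 (0.81) and Smoc2 (0.79) came inside the 2-fold line.

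Endocrine cell genes were mostly on the lower side. Of 28 kept, 12 were lower and 2 higher, at a median of -0.74. Sst, somatostatin, which restrains acid secretion, stood at 31.0 RPKM in VSG stomach against 376 in sham stomach (12.1-fold lower, 11.3 to 13.0). Ghrl, ghrelin, the hunger hormone of the corpus, stood at 150 against 1004 RPKM (6.68-fold lower, 6.51 to 6.87). Chga, chromogranin A, and Slc18a2, the monoamine transporter of enterochromaffin-like cells, stood at 25.2 and 1.51 RPKM against 252 and 12.5. Hdc, which makes histamine in those cells and in mast cells, stood at 19.3 against 12.4 RPKM, higher but short of 2-fold. The neutrophil list below also holds Hdc, and the share of each cell type in its level was not tested. Gast, gastrin of the antrum, stood at 280 against 419 RPKM, also short of 2-fold. Nts, neurotensin, and Pyy, peptide YY, both intestinal hormones, were the 2 higher, at 2.11 and 10.1 RPKM against 0.0649 and 3.02. Ghrelin and somatostatin were thus further below sham than gastrin was.

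**Figure D2:**
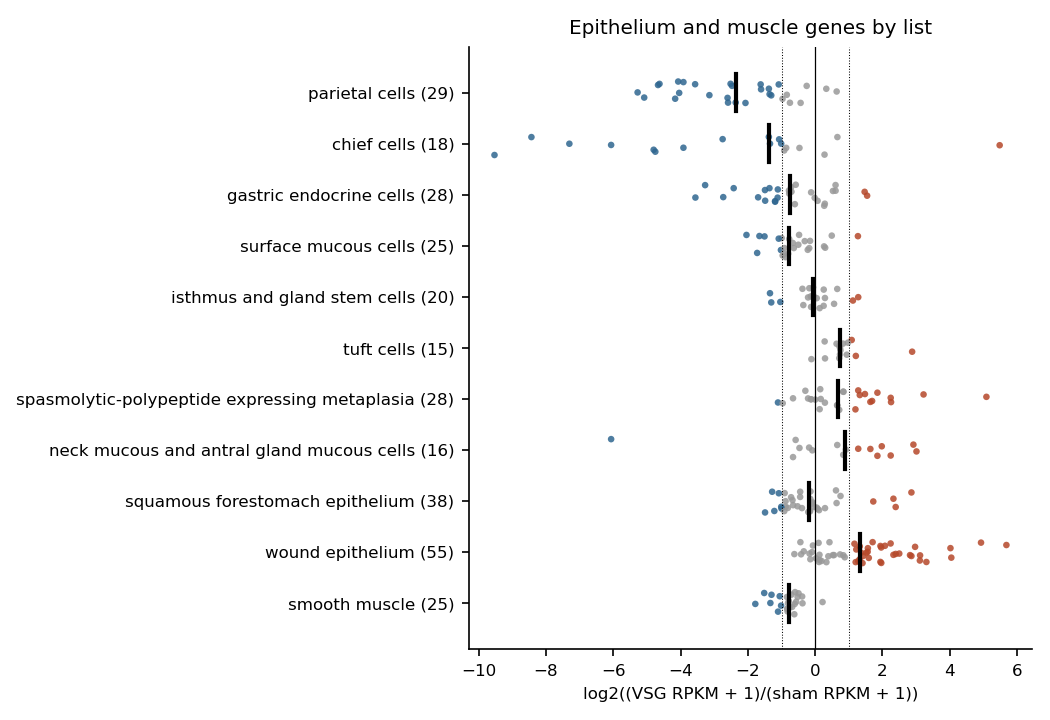
log2((VSG RPKM + 1)/(sham RPKM + 1)) of every kept gene in 11 epithelium and muscle lists (x axis), 1 point a gene, with the number of genes in brackets, a black bar at the median and dotted lines at 2-fold; red is at least 2-fold higher, blue at least 2-fold lower and grey neither. Parietal and chief cell genes spread far to the left, neck mucous and wound genes lie mostly to the right, and squamous genes lie on both sides of 0.

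Transcription factors were read next, as families. Among 634 factor genes, 355 were kept, of which 49 were higher in VSG stomach (13.8%) and 13 lower (3.66%), at a median of -0.06. These shares are close to the 12.9% and 3.94% of all genes, so factor genes as a class did not stand apart. Of the 49 higher, 9 are in a liver or acinar list, and of the 13 lower, 2 are.

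The lower factors included several of gland identity. Esrrg, an estrogen-related receptor that parietal cells need, had the largest difference, at 1.25 RPKM in VSG stomach against 39.3 in sham stomach (31.4-fold lower, 28.1 to 35.1), and its relative Esrrb stood at 0.151 against 2.13. Bhlha15, known as Mist1, which builds the secretory apparatus of chief cells, stood at 2.04 against 19.5 RPKM (9.54-fold lower, 8.53 to 10.7). All of these ratios are far from 1 next to their counting intervals. The call of Esrrb was lost with a pseudocount of 5 RPKM.

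The GATA factors, which specify stomach endoderm and its stroma, had a median of -1.10 with 2 of 4 lower and none higher. Gata4 stood at 26.8 RPKM in VSG stomach against 78.8 in sham stomach (2.94-fold lower, 2.85 to 3.04) and Gata6 at 5.27 against 15.3 (2.90-fold lower, 2.75 to 3.06). Gata5 stood at 7.40 against 13.8, short of 2-fold, while Gata2, a factor of blood and vessels, stood at 1.55 and 1.58. Foxa2, a pioneer factor of endoderm and endocrine cells, stood at 7.72 against 21.6 RPKM (2.80-fold lower, 2.59 to 3.03), and Foxa1 at 29.2 against 47.5. Isl1, of endocrine cells, stood at 1.49 against 5.98. Other lower factors were Nr4a2, an orphan nuclear receptor (1.99 and 8.63 RPKM), Smad9, a mediator of BMP signals (0.741 and 4.04), Prdm16 (1.97 and 6.06), Prdm6 (0.546 and 2.42), Ptf1a, of acinar cells (0.229 and 1.92) and Hoxc5 (1.68 and 4.44), the last inside the 2-fold line (-0.88) when both libraries were scaled to the same sum. With a pseudocount of 5 RPKM the calls of Gata6, Isl1, Nr4a2, Smad9, Prdm16, Prdm6, Ptf1a and Hoxc5 were lost.

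Regional factors moved less. Pdx1, of the antrum and duodenum, stood at 7.64 RPKM in VSG stomach against 4.07 in sham stomach (1.87-fold higher, 1.64 to 2.15), short of 2-fold on the scale used for calls. Sox2, of the whole stomach, is given above. Pitx1 stood at 42.8 against 57.3 and Barx1, of stomach mesenchyme, at 17.2 against 35.1, log2 -0.99. Of 14 HOX genes 1 was lower, at a median of -0.25, and Klf4, of surface and squamous cells, stood at 117 against 162.

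The higher factors were led by those of liver and of blood cells. Creb3l3, a liver factor of lipid and acute phase genes, stood at 39.8 RPKM in VSG stomach against 1.32 in sham stomach, and Nr1h3, Nr1h4 and Nr1i3, nuclear receptors of liver among other tissues, stood at 26.2, 11.5 and 2.76 against 2.30, 2.04 and 0.0420. All 5 nuclear receptors that were higher are in a liver list, and without those genes none of 27 was higher and 3 were lower; the family median of -0.11 turned positive under another scaling. Spi1, known as PU.1, which defines myeloid cells, stood at 46.6 RPKM against 3.23 (14.4-fold higher, 12.9 to 16.2). Of 6 C/EBP factors 4 were higher at a median of 1.59, and 3 of 5 at 1.56 without liver-list genes. Cebpb, of myeloid cells and the acute phase, stood at 32.9 against 5.82 RPKM (5.66-fold higher, 5.20 to 6.17), Cebpd at 20.9 against 6.45, Cebpe, of late granulocyte precursors, at 2.34 against 0.0824, and Cebpa, which liver also makes, at 84.4 against 20.8. Nr1i3 and Cebpe lost their calls with a pseudocount of 5 RPKM.

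Of 9 IRF factors 4 were higher at a median of 0.60. They were Irf1 (31.2 RPKM in VSG stomach, 7.72 in sham stomach), Irf5 (14.5 and 3.34), Irf8 (7.51 and 1.69) and Irf4 (1.82 and 0.270), which serve interferon responses and leukocyte fates. Of 5 NF-kB factors Relb alone was called, at 8.90 against 3.40 RPKM and not (0.86) with the same sum taken without the 10 highest genes, and Rela and Nfkb1 stood at 28.5 and 15.3 against 18.4 and 11.1. Stat3 stood at 39.5 against 29.2, not called. Ikzf1, of lymphocytes, stood at 2.75 against 0.428, and Pou2af1, a B cell coactivator, at 6.49 against 0.308. With a pseudocount of 5 RPKM, Irf8, Irf4, Relb and Ikzf1 were no longer called.

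A smaller set is known from stroma and stress. Prrx1 and Prrx2, of fibroblasts, stood at 3.68 and 2.56 RPKM in VSG stomach against 0.522 and 0.226 in sham stomach. Snai1, which represses epithelial adhesion genes, stood at 8.39 against 1.76 (4.76-fold higher, 4.08 to 5.58), Hif1a, of the hypoxia response, at 39.8 against 16.7, and Bhlhe40 at 50.8 against 22.1. Hif1a (0.85) and Bhlhe40 (0.80) lost their calls with the same sum taken without the 10 highest genes. A pseudocount of 5 RPKM ended the calls of Prrx1, Prrx2 and Snai1. Foxf1, of gut mesenchyme, stood at 7.32 against 13.8, below sham and short of 2-fold.

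**Figure D3:**
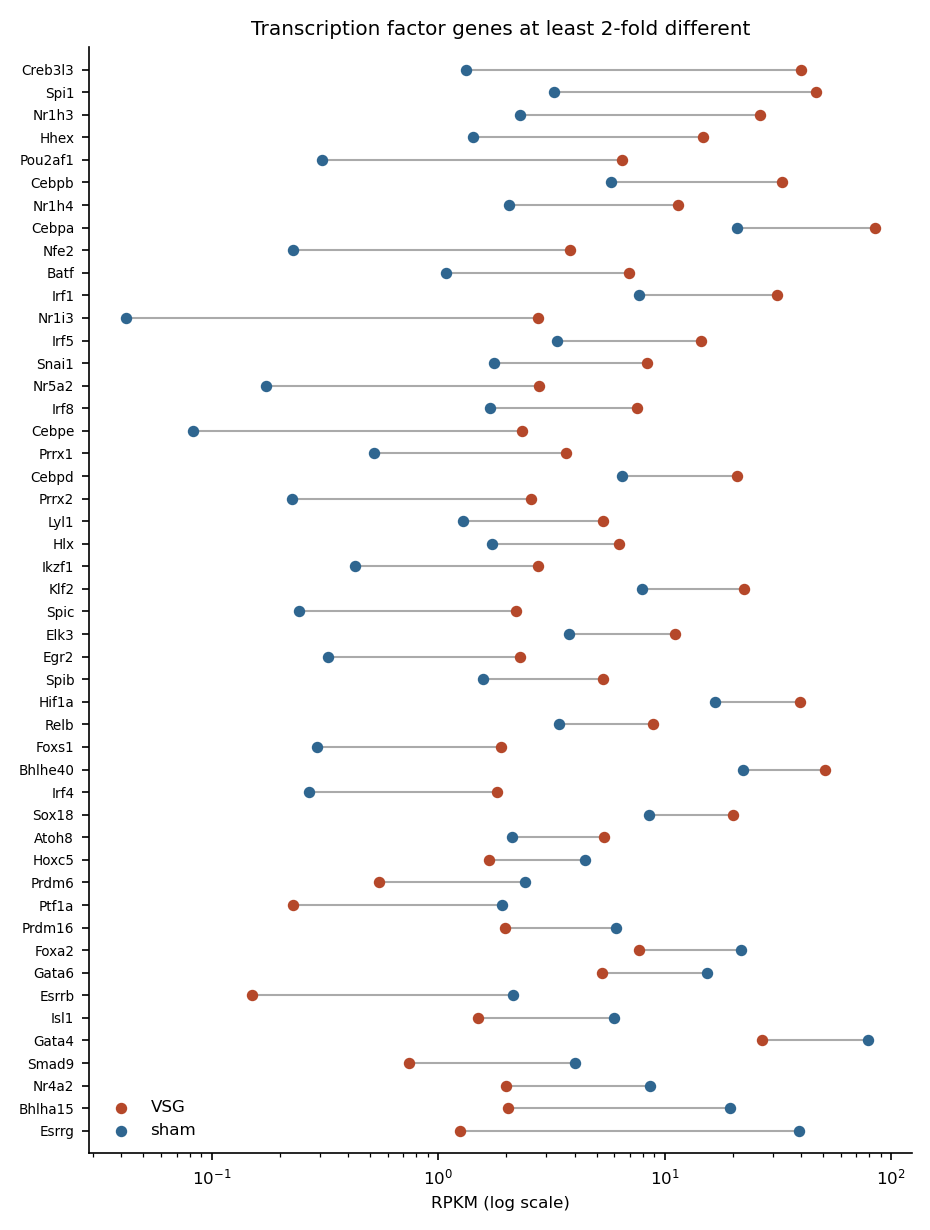
RPKM (x axis, log scale) of transcription factor genes at least 2-fold different, at most 4 in each direction from any 1 family; red points are the VSG library, blue points the sham library, and genes run from the most positive log2 difference at the top to the most negative at the bottom. Creb3l3 and Spi1 lead the higher factors, and Esrrg and Bhlha15 the lower ones.

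Squamous forestomach genes went both ways. Of 38, 4 were higher (10.5%) and 6 lower (15.8%), against 12.9% and 3.94% of all genes. The median of -0.18 reached 0.02 under another scaling, and the summed levels were 11552 RPKM in VSG stomach and 10914 in sham stomach. Krt13, of the upper layers, stood at 827 against 1189 RPKM, and Krt5, of the basal layer, at 299 against 177, both short of 2-fold. Krt14, its basal partner, stood at 438 against 131 RPKM (3.33-fold higher, 3.27 to 3.39). The cornified envelope genes Sprr1b, Sprr2d and Sprr2h stood at 41.0, 102 and 4.58 RPKM against 4.78, 18.6 and 0.113, whereas Sprr2a1, the most abundant of them, stood at 6093 against 3968 and was not called. That gene carries the summed level, which without it was 5459 RPKM in VSG stomach and 6946 in sham stomach. In all, 27 of the 38 lay below 0. The 6 lower were led by Rptn, repetin, at 98.7 against 279 RPKM, and Krt15, a basal keratin, at 11.4 against 29.0, named here after their values were seen.

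Wound epithelium genes were higher as a group. Of 55, 33 were higher and none lower, at a median of 1.33, and the list summed to 7665 RPKM in VSG stomach against 3882 in sham stomach. Krt6a, Krt6b and Krt16, stress keratins, stood at 236, 204.5 and 118 RPKM in VSG stomach against 26.4, 28.1 and 20.1 in sham stomach (8.94-fold higher for Krt6a, 8.66 to 9.22, and 5.89-fold for Krt16, 5.63 to 6.15). Krt6a and Krt6b are near-identical copies, so the split of reads between them is uncertain. Areg, amphiregulin, an EGF family ligand, stood at 26.4 against 10.7 RPKM, uncalled (0.88) with the same sum taken without the 10 highest genes, and Il1rn, the interleukin-1 receptor antagonist of keratinocytes and macrophages, at 54.1 against 5.35. Slpi, a protease inhibitor of mucosa, stood at 409 against 104. Gjb6 and Plet1, the members furthest the other way, stood at 1.75 and 18.2 RPKM against 3.23 and 25.0. Mmp1b and Il20 were at 0 in VSG stomach, and Il24, Mmp1b and Il20 in sham stomach. Several of the largest members, such as Cxcl1, Mmp9 and Mmp13, are also made by leukocytes or fibroblasts, and the part of each cell type was not tested.

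Neutrophil genes had the highest median of the leukocyte lists, at 3.24. Of 40, 37 were higher and none lower, and the summed level was 5404 RPKM in VSG stomach against 245 in sham stomach, where Ngp, Elane, Trem1 and Mrgpra2b were at 0. Lcn2, which epithelium and liver also make, gave 2376 RPKM of the VSG sum and 0.867 of the sham sum. The part of each cell type in the summed level was not tested. Csf3r, the receptor for granulocyte colony-stimulating factor, stood at 23.7 RPKM against 0.361 (65.5-fold higher, 54.6 to 79.2), and Cxcr2, the receptor for neutrophil chemokines, at 9.51 against 0.528 (18-fold higher, 15 to 21.8). S100a9, a calprotectin subunit, stood at 637 against 9.12. Ngp, a granule protein of neutrophil precursors, stood at 80.4 against 0, at least 2439-fold higher against a floor of 3 reads. Red blood cell genes had 4 of 5 higher at a median of 1.35, led by Alas2 at 12.5 RPKM in VSG stomach against 1.17 in sham stomach (10.7-fold higher, 9.20 to 12.6). The share of blood in the neutrophil values was not tested. Hbb-bs, a beta globin with a near-identical neighbour, stood at 409 against 160 RPKM (2.56-fold higher, 2.49 to 2.64), with a log2 of 0.98 when the same sum was taken without the 10 highest genes.

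Macrophage and monocyte genes had 51 of 57 higher and 1 lower, at a median of 3.02. Without the 7 that liver and Kupffer lists hold, 45 of 50 were higher and 1 lower, at 2.85. Ctss, a lysosomal protease, stood at 328 RPKM in VSG stomach against 16.6 in sham stomach, Lyz2, lysozyme, at 1737 against 67.5, and Arg1, arginase, at 318.5 against 8.95, the last also a hepatocyte urea cycle gene. The 1 lower gene was Retnla, of alternatively activated macrophages, at 3.69 against 11.4 RPKM (3.10-fold lower, 2.50 to 3.87). Cd5l and Vsig4, of Kupffer and other resident macrophages, stood at 61.4 and 19.4 against 0.0626 and 0.0445. The share of liver macrophages in these values was not tested.

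Antigen presentation and lymphocyte genes stood higher as well. Of 12 MHC class II genes 11 were higher at a median of 2.19, with H2-Ab1 at 235 RPKM in VSG stomach against 39.6 in sham stomach. Of 17 dendritic cell genes 12 were higher at a median of 1.10, led by Itgax (11 and 1.62 RPKM). Of 19 genes of T, natural killer and innate lymphoid cells 16 were higher at a median of 1.52, and Il17a, Il22 and Ifng were at 0 in sham stomach. Il17a, a cytokine of mucosal defence, stood at 3.06 against 0 RPKM, at least 93.7-fold higher against the floor. Of 14 B and plasma cell genes 11 were higher and 1 lower, at 1.74, with Cd79a at 12.9 against 0.385 and Mzb1, of plasma cells, at 22.8 against 0.563.

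Mast cell, basophil and eosinophil genes did not follow the other leukocytes. None of 12 was higher and 1 was lower, and the median of 0.00 changed sign with the scaling. The 1 lower gene was Kit, at 4.05 RPKM in VSG stomach against 10.5 in sham stomach, which interstitial cells of Cajal also carry. Mcpt1 and Mcpt2, mucosal mast cell proteases, stood at 15.0 and 14.6 RPKM against 8.30 and 13.2.

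Signals that recruit and activate leukocytes were higher. Of 28 cytokine genes 18 were higher and none lower, at a median of 1.18. Il1b, interleukin-1 beta, stood at 32.1 RPKM in VSG stomach against 0.338 in sham stomach (95-fold higher, 79.9 to 114). Csf3, granulocyte colony-stimulating factor, stood at 6.15 RPKM against 0.00936, with 388 reads against 1 read (ratio 657, interval 117 to 26020). Il18, which gastric epithelium makes without injury, stood at 48.1 against 75.4 RPKM, short of 2-fold. Of 62 cytokine receptor and signalling genes 37 were higher and 1 lower at a median of 1.35, the lower one being Socs2, a brake on growth hormone signals, at 8.41 against 18.8. Its call was lost (-0.89) with both libraries scaled to the same sum.

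Of 29 chemokine genes 21 were higher and none lower, at a median of 2.69. The largest were ligands of Cxcr2. Cxcl5 stood at 105 RPKM in VSG stomach against 0.278 in sham stomach (378-fold higher, 273 to 541), Cxcl1 at 53.9 against 0.0672 (802-fold, 343 to 2471) and Cxcl3 at 38.7 against 0.151 (256-fold, 146 to 496). The sham library held 5 reads of Cxcl1 and 12 of Cxcl3, which sets the width of those intervals. Ppbp, carried by platelets, stood at 61.3 against 1.04 RPKM. Ligands of other receptors were higher too, with Ccl5, for T cells, at 30.2 against 1.35 and Cxcl9, an interferon gamma target, at 16.6 against 0.369. Ccl27a and Cxcl17, epithelial chemokines, stood at 2.35 and 30.1 RPKM against 2.51 and 50.8. Of 13 chemokine receptors 11 were higher at 1.60, among them Ccr1 (14.1 and 0.653 RPKM) and Cxcr4 (19.0 and 1.84).

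Because Cxcl1 and Cxcl3 had some of the largest ratios among the signals, their promoters are shown, in the 120 bases before the start of the gene (RefSeq, GRCm38.p6, plus strand, Cxcl1 chr5:90891125-90891244 and Cxcl3 chr5:90785981-90786100). Capitals mark matches on either strand to a plain form of the NF-kB site, the bases GGGA, then 4 bases of any kind, then CC. These genes were picked for display after their matches were seen.
Cxcl1: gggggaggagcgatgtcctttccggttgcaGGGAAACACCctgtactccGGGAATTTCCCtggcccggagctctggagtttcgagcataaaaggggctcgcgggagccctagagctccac
Cxcl3: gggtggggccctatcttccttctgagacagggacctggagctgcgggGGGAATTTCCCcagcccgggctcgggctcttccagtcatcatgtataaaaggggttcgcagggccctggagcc
In Cxcl1 the matches lay 90 to 81 and 71 to 62 bases before the start on the plus strand, and one on the minus strand, 70 to 61 bases before it, overlapped the second. In Cxcl3 they lay 73 to 64 bases before the start on the plus strand and, overlapping that, 72 to 63 on the minus strand. Over windows of 300 bases, 250 before the start and 50 after it, 9 of 21 chemokine promoters in the table held the motif (42.9%), as did 24.9% of 1296 genes called higher in VSG stomach, 26.4% of 10550 kept genes and 22.9% of all 17611. A match is a run of letters and says nothing of binding.

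Acute phase and complement genes had medians of 6.45 and 3.15, and hepatocytes are the main source of both in the body. Of 36 acute phase genes 33 were higher and 1 lower. Without the genes that liver lists hold, 24 of 27 were higher and 1 lower, at a median of 5.59, but those 27 still include liver genes such as Saa1, Saa2 and Orm2. Saa3, a serum amyloid of macrophages, adipocytes and epithelium, stood at 1519 RPKM in VSG stomach against 0.170 in sham stomach, and Lcn2, lipocalin-2 of neutrophils, epithelium and liver, at 2376 against 0.867. Saa1 and Saa2, near-identical liver genes whose reads may be shared, stood at 2520 and 2900 against 0.363 and 0.460. The lower gene was Hamp2, a hepcidin copy, at 15.6 against 107 (6.85-fold lower, 6.10 to 7.71). Hepatocyte secreted genes summed to 44094 RPKM in the same library, as given above, and their part in the acute phase values was not tested.

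Of 39 complement genes 35 were higher and 1 lower, and 28 of 32 without the liver-list genes. C3, the central component, stood at 938.5 RPKM in VSG stomach against 29.6 in sham stomach, and Serping1, the C1 inhibitor that stromal cells also make, at 369 against 54.7. C7, which stromal cells make, was the lower one, at 2.76 against 8.60 (3.12-fold lower, 2.78 to 3.51). Of 37 antimicrobial protein genes 30 were higher and none lower at 2.25, and 28 of 35 at 2.51 without liver-list genes. Of 64 interferon response genes 31 were higher and none lower at 0.97, with Iigp1 (22.6 and 1.73 RPKM) and the Ifitm genes, similar in sequence, on the higher side, while Oas2 and Ifi27 stood at 3.24 and 52.5 RPKM against 6.80 and 98.0.

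**Figure D4:**
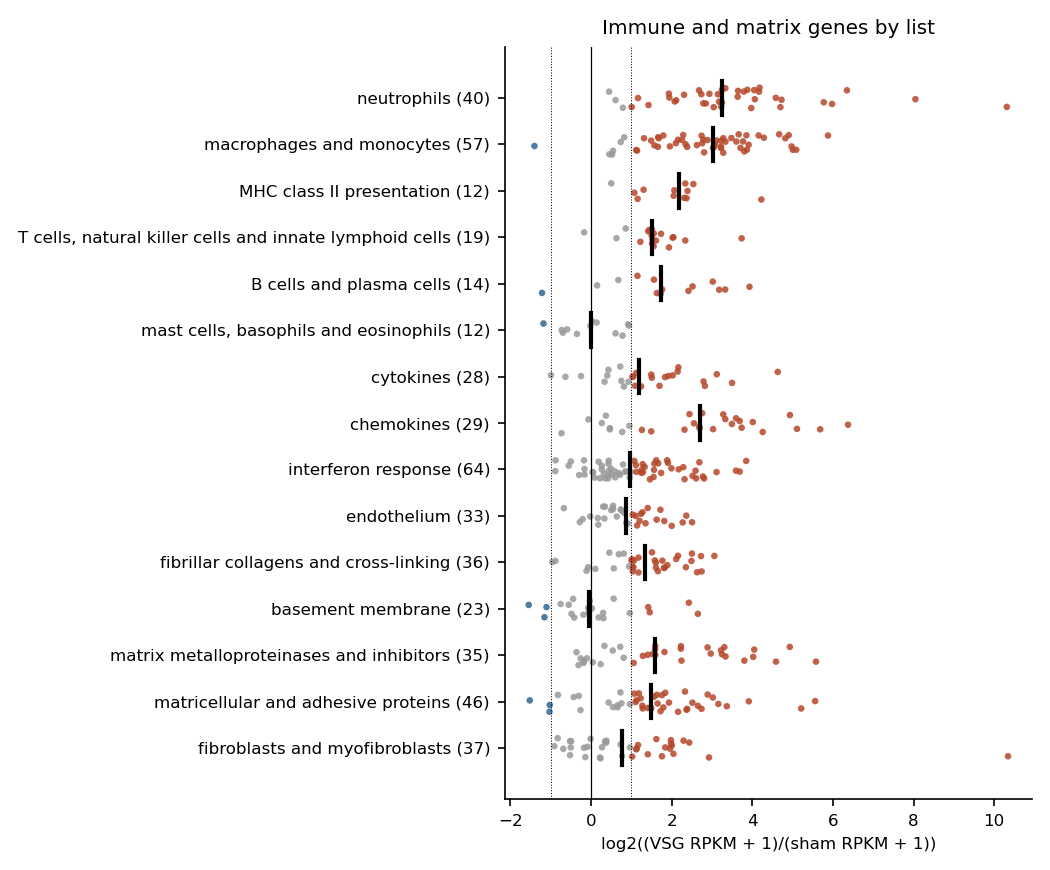
log2((VSG RPKM + 1)/(sham RPKM + 1)) of every kept gene in 15 immune and matrix lists (x axis), 1 point a gene, with the number of genes in brackets, a black bar at the median and dotted lines at 2-fold; red is at least 2-fold higher, blue at least 2-fold lower and grey neither. Neutrophil and macrophage genes have the rightmost medians, while mast cell and basement membrane genes have medians near 0.

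Matrix genes split by kind. Of 36 genes of fibrillar collagens and their cross-linking 26 were higher and none lower, at a median of 1.34. Col1a1 stood at 339.5 RPKM in VSG stomach against 39.9 in sham stomach (8.51-fold higher, 8.36 to 8.67), Col3a1 at 265 against 45.9 (5.77-fold, 5.69 to 5.84) and Col12a1, which decorates fibrils under tension, at 21.5 against 2.36. Lox, which cross-links collagen, stood at 18 against 1.87. P4ha2, a collagen prolyl hydroxylase, was on the other side at 4.47 against 9.66, log2 -0.96, short of 2-fold.

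Basement membrane genes did not shift as a list. Of 23, 4 were higher (17.4%) and 3 lower (13.0%), against 12.9% and 3.94% of all genes. The median of -0.06 changed sign with the scaling. Col4a1 and Col18a1 stood at 81.9 and 56.9 RPKM in VSG stomach against 29.3 and 9.77 in sham stomach, and Col4a6, of smooth muscle basement membrane, at 1.24 against 5.55 (4.48-fold lower, 4.05 to 4.96).

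Of 46 matricellular and adhesive protein genes 32 were higher and 3 lower, at 1.49, and 31 of 45 were higher at 1.48 without liver-list genes. Thbs2, a thrombospondin, stood at 46.2 RPKM in VSG stomach against 3.58 in sham stomach, Fmod, fibromodulin, at 34.2 against 1.34, and Ccn5, a connective tissue growth factor relative, at 46.5 against 0.280 (166-fold higher, 121 to 234). The 3 lower included Ogn, osteoglycin, at 16.3 against 48.6 (2.99-fold lower, 2.85 to 3.13), and Sparcl1, at 61.9 against 128, which was not called (-0.83) with both libraries scaled to the same sum. Of 37 fibroblast genes 17 were higher and none lower at 0.77. Lrrc15, of activated fibroblasts, stood at 4.54 against 0.130 (35.0-fold higher, 26.6 to 46.9) and Thy1 at 21.6 against 4.49, whereas Acta2, of myofibroblasts and smooth muscle, stood at 443 against 624.

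Of 35 genes of matrix metalloproteinases and their inhibitors 23 were higher and none lower, at a median of 1.59. Mmp3, stromelysin-1, stood at 59.0 RPKM in VSG stomach against 0.255 in sham stomach (231-fold higher, 167 to 331), Mmp13, a collagenase, at 43.0 against 0.444 (97.0-fold, 79.0 to 120), and Mmp7, matrilysin, an epithelial protease, at 17.1 against 0.116 (147-fold, 74.4 to 343). Mmp9, a gelatinase of neutrophils and keratinocytes, stood at 27.2 against 0.703, and Timp1, their inhibitor, at 55.8 against 1.36 (40.9-fold, 33.8 to 50). Mmp28, of resting epithelium, and Reck, a membrane inhibitor, stood at 5.00 and 2.19 RPKM against 6.45 and 3.10, neither called.

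The 120 bases before the starts of Mmp3 (chr9:7445702-7445821), Mmp7 (chr9:7691970-7692089) and Mmp13 (chr9:7272394-7272513), all on the plus strand of GRCm38.p6 from RefSeq, are shown because these proteases had large ratios and each held a match to TGANTCA, the AP-1 site, in capitals. They too were picked for display after their matches were seen.
Mmp3: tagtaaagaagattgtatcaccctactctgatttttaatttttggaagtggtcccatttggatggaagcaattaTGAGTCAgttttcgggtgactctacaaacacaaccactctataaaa
Mmp7: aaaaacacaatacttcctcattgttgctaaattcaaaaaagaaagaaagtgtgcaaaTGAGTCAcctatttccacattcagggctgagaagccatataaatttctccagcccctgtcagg
Mmp13: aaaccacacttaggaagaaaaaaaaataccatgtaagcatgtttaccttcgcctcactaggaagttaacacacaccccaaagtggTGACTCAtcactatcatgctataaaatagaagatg
The match lay 46 to 40 bases before the start in Mmp3, 63 to 57 in Mmp7 and 35 to 29 in Mmp13. Searched on both strands over the 300-base windows, 15 of 37 wound epithelium promoters held the motif (40.5%) and 5 of 24 promoters of the metalloproteinase list (20.8%), against 10.3% of genes called higher in VSG stomach, 5.73% of kept genes and 7.39% of all promoters. Other lists had like shares, with 32.1% for acute phase genes, 23.8% for chemokines and 21.4% for surface mucous genes, a list mostly below sham. Neutrophil, parietal, macrophage and chief cell lists had 11.1%, 10%, 7.14% and 6.25%. The metalloproteinase share was thus not particular to that list. The motif reads the same on both strands apart from its middle base. The genes of its own factors were mixed, since of 38 AP-1, ATF, CREB and MAF genes 8 were higher and none lower, at a median of 0.00 that changed sign with the scaling, and Junb stood at 109 RPKM in VSG stomach against 55.6 in sham stomach, log2 0.96.

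Muscle and nerve genes were mostly below sham. Of 25 smooth muscle genes 7 were lower and none higher, at -0.78, with Myh11, smooth muscle myosin, at 64.7 RPKM in VSG stomach against 187 in sham stomach (2.89-fold lower, 2.85 to 2.93), and with Tagln and Des short of 2-fold at 438 and 237 against 629 and 310. Of 21 genes of interstitial cells of Cajal, enteric neurons and glia 7 were lower and 2 higher, at -0.44. Snap25, of nerve terminals, stood at 1.54 against 4.99, Prph, peripherin of enteric neurons, at 0.751 against 3.11, and Ano1, a channel of interstitial cells, at 14.9 against 18.8. Gal, galanin, was higher at 4.95 against 1.15, and the other higher gene was Ass1, which hepatocytes make in bulk; without liver-list genes the median of 20 was -0.61. Skeletal muscle genes had 1 of 20 higher and none lower, at a median of 0.10 that changed sign with the scaling.

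Of 33 endothelial genes 15 were higher and none lower, at 0.87, and 14 of 32 at 0.85 without liver-list genes. Selp, Icam1 and Vcam1, adhesion molecules of activated vessels, stood at 8.48, 16.4 and 17.8 RPKM in VSG stomach against 0.668, 2.38 and 2.88 in sham stomach (12.7-fold for Selp, 10.9 to 14.9, and 6.88-fold for Icam1, 6.39 to 7.42). Sox18, a vessel factor, was higher too at 20.1 against 8.57, but not (0.80) with the same sum taken without the 10 highest genes. Pecam1, Plvap and Flt1, other vessel genes, stood at 26.8, 72.4 and 3.01 against 18.1, 56.8 and 5.40, none of them called. Mesothelial genes had 4 of 19 higher (21.1%) and 2 lower (10.5%), against 12.9% and 3.94% of all genes. Their median of 0.11 changed sign with the scaling. Prg4, lubricin, stood at 15.6 against 0.673 and Gpm6a at 1.97 against 8.90.

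Growth factor genes were mixed, with 17 of 64 higher (26.6%) and 3 lower (4.69%), against 12.9% and 3.94% of all genes. Their median of 0.21 changed sign with the scaling. The lower were Egf (0.290 RPKM in VSG stomach, 2.11 in sham stomach, 7.29-fold lower, 6.03 to 8.90), Pdgfd (1.96 and 5.40) and Fgfbp1, which releases bound fibroblast growth factors (27.7 and 57.7). Pdgfd (-0.96) and Fgfbp1 (-0.84) lost their calls with both libraries scaled to the same sum. Mst1, Igfbp1 and Inhbe, all known from liver, were the largest on the higher side, at 21.7, 5.19 and 13.2 RPKM against 1.10, 0.0168 and 0. Areg, of the same family as Egf, lay on the other side from it, as given above. Bmp4 stood at 4.78 against 9.87, short of 2-fold.

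Proliferation and housekeeping lists held few calls. Of 39 cell cycle genes none was higher and 2 were lower, Cdkn2b (8.93 RPKM in VSG stomach, 22.8 in sham stomach) and Cdkn1c (4.34 and 11.8), both inhibitors of cyclin-dependent kinases. The median of that list was 0.33, and Pcna, the replication clamp, stood at 55.8 and 47.3 RPKM. None of 81 ribosomal protein genes was called, at a median of 0.41. Of 47 genes of the secretory pathway and unfolded protein response 3 were lower and none higher, at 0.18 with a sign that changed with the scaling, and the 3 were Asns (29.5 and 84.0), Derl3 (4.43 and 11.6) and Ern2, of mucous cells (17.5 and 36.6), the last uncalled (-0.83) with both libraries scaled to the same sum.

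Metabolic lists held a few large differences. Against 12.9% of all genes, 17.2% of hypoxia and glycolysis genes and 18.2% of cholesterol synthesis genes were higher, both near that share. For glutathione and oxidative stress genes and for adipocyte genes the shares were 22.6% and 29.4%. Of 29 hypoxia and glycolysis genes 5 were higher and 1 lower at 0.21, a sign that changed with the scaling. Slc16a3, a lactate exporter, stood at 20.0 RPKM in VSG stomach against 1.92 in sham stomach (10.4-fold higher, 9.36 to 11.6) and Hilpda at 17.8 against 4.59. The lower one, Car9, is a hypoxia target that gastric surface cells carry without injury, at 19.3 against 85.2. Of 31 glutathione and oxidative stress genes 7 were higher and 1 lower at 0.58 (7 of 30 higher at 0.51 without liver-list genes), with Gpx3 at 294 against 55.1. Of 22 cholesterol synthesis genes 4 were higher and none lower at 0.68, among them Sc5d, a sterol desaturase, at 76.3 against 33.6, uncalled (0.80) with the same sum taken without the 10 highest genes. Of 17 adipocyte genes 5 were higher and 1 lower at -0.09, a sign that changed with the scaling. Scd1, which fat and liver both make, stood at 515 against 7.74, and Plin4, of fat droplets, at 3.08 against 9.52.

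The same contrast in the intestine gave few calls. In jejunum 124 of 11681 genes were at least 2-fold different (1.06%), in ileum 33 of 12202 (0.27%) and in colon 62 of 12970 (0.478%), against 16.9% in stomach. Duodenum was not used here. The parietal list had medians of -0.06, 0.10 and 0.00 in jejunum, ileum and colon, the neutrophil list 0.57, 0.16 and 0.34, and the wound epithelium list 0.12, 0.18 and -0.02. Acute phase genes in jejunum had 9 of 16 higher at a median of 1.35. Antimicrobial protein genes had 13 of 26 higher there at 0.92, neutrophil genes 4 of 15 and hepatocyte secreted genes 5 of 18, with none lower. In ileum 3 of 25 antimicrobial genes were higher and none lower, and in colon 3 of 28 were higher and 2 lower. Acinar genes alone of the lists drawn below had medians in jejunum (2.28) and colon (3.41) beyond the 1.91 of stomach. The difference between tissues was not tested, with 1 library a group in each.

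**Figure D5:**
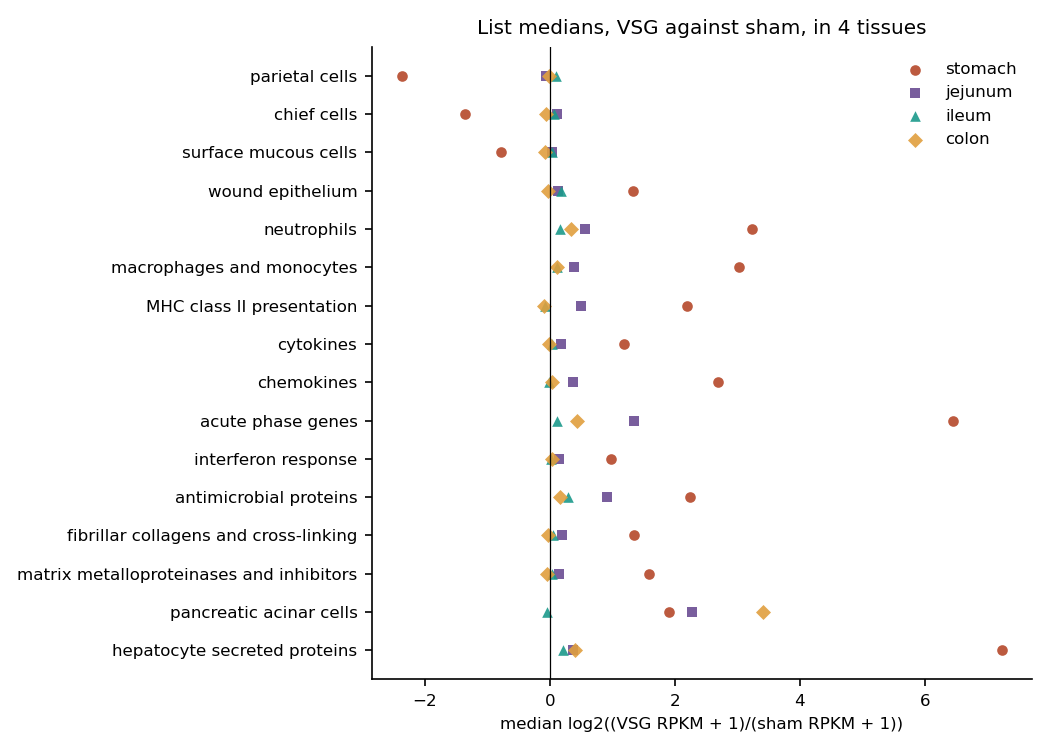
Median log2((VSG RPKM + 1)/(sham RPKM + 1)) of 16 gene lists (y axis) in stomach (circles), jejunum (squares), ileum (triangles) and colon (diamonds), over the genes of each list kept in that tissue. For every list shown except pancreatic acinar genes the stomach point lies furthest from 0, and the intestinal points lie within 1 of it except for acinar genes in jejunum and colon and acute phase genes in jejunum.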

How the data were processed

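The labels describe 10 mouse RNA-seq libraries, 1 for each of 5 tissues after VSG or sham surgery, with RNA extracted in TRIzol and TruSeq libraries, per the labels' protocols. GSNAP, Cufflinks and mm10 are named without versions or roles, per the submitters' processing notes. The authors deposited 1 table of RPKM values for 23079 Entrez genes. The sources used here do not give the counting rules or the annotation. RefSeq symbols (GRCm38.p6) were found for 23008 genes (99.69%).

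Intestinal columns stood 1 row off the identifiers in a block of 18187 rows and were moved back. In all 35 windows of 500 rows inside the block they correlated best with stomach when shifted by 1 row, and in all 9 outside when not shifted. Stomach columns were used as deposited.

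A gene was kept where its VSG and sham values averaged 1 RPKM or more, and the difference is log2 with a pseudocount of 1 RPKM, which understates the change of low genes. A difference of 2-fold was called, with no test. RPKM values are whole multiples of what 1 read is worth: 13358 of 13367 genes (99.93%) returned whole reads within 0.001 reads, and for 1009 of 1392 genes of single transcript the recovered length lay within 10% of the annotated one. These reads gave depth, exact Clopper-Pearson 95% intervals conditional on the summed reads, and a floor of 3 reads per library where a library had 0. They cover counting error only.

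The gene lists (51), factor families (17, of which 15 hold transcription factors) and members were chosen with earlier results of these data known. Named genes are the 10 largest differences each way outside liver and acinar lists, and in each list up to 4 largest, 2 most abundant and 2 most contrary genes, called factors, markers at 0 and a set of defining genes. Some genes that this rule allows are not reported here. Alternatives were pseudocounts of 0.1 and 5, no filter or a mean of 5 RPKM, 4 rescalings, the intestinal rows as deposited and, chosen after seeing the data, lists without genes of liver, Kupffer and acinar lists and 2 summed levels without 1 gene. Scripts used Python 3.11.15, numpy 2.4.6, scipy 1.17.1, pandas 2.3.3 and matplotlib 3.10.9 and were tested on simulated data.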

Additional observations from a re-analysis of the deposited data

How the results depend on the processing

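No paired analysis was possible because each group holds 1 library and the labels give no replicate numbers. No library could be left out for the same reason. The 1728 genes higher in VSG stomach became 1049 with a pseudocount of 5 and 1137 with a minimum mean of 5 RPKM. The 527 lower genes became 794 with a pseudocount of 0.1, 195 with a pseudocount of 5 and 322 with a minimum mean of 5 RPKM. They became 1151 when both libraries were rescaled to the same sum without the 10 highest genes of either, and 837 when the liver and acinar lists were left out of that sum too. The minimum of 5 RPKM kept 8574 genes against 13367, so its counts are out of a smaller total. The cause of the other shifts was not tested. The other 12 counts, those with no filter, with the same sum, with a median of 0 and with intestinal rows as deposited among them, stayed within 1.5 times. Of 412 named genes 267 were called, 183 of these stayed called with the same sign in every alternative, and none changed sign. A pseudocount of 5 ended 72 of these calls, the same sum 9, that sum without the 10 highest genes 23, and without the liver and acinar lists too 15. Outside the factor paragraphs, losses at a pseudocount of 5 are not marked above, and include Cckbr, Tnfrsf19, Egf, Il17a and Lrrc15. Depth limits most the ratios that rest on few sham reads, such as those of Csf3, Cxcl1 and Cxcl3.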
